A study of Capra hircus with 20 samples.

Results

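Steroid hormones reach the hypothalamus from the gonads and adrenals, and the brain itself converts and makes steroids. The 9 genes described here are 3 sex steroid receptors (ESR1, ESR2 and PGR), 2 corticosteroid receptors (NR3C1 and NR3C2), 3 enzymes of steroid conversion (CYP19A1, SRD5A1 and HSD11B1) and the cholesterol transporter STAR. They were chosen by symbol, matched to goat gene identifiers through the RefSeq annotation of assembly ARS1.2, and all 9 were found among the 21071 genes of the table. The data were RNA sequencing values of hypothalamus from 20 female Jining grey goats, an early maturing breed, with 1 library per goat. The goats were 1, 60, 120 or 180 days old (D1, M2, M4 and M6), with 5 goats per stage and no treatment. The study describes their feeding management as the same, and does not state what goats of each age were fed. The study set these stages side by side to follow the hypothalamus from birth to sexual maturity. Values are FPKM, fragment counts scaled to transcript length and to the mapped total of the library, so levels can be set side by side between genes of different length.

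Steroid receptors are ligand-bound transcription factors. In the hypothalamus, estrogen and progesterone acting on ESR1 and PGR are central to the feedback on GnRH release and to female sexual behaviour, and neurons that respond to estrogen relay this feedback because GnRH neurons hold little ESR1 of their own. The glucocorticoid receptor NR3C1 closes the feedback loop of the stress axis, and NR3C2 binds both aldosterone and glucocorticoids. Enzymes within the tissue set how much ligand a cell sees. CYP19A1, aromatase, makes estrogens from androgens, SRD5A1 makes dihydrotestosterone and the precursor of allopregnanolone, HSD11B1 regenerates active glucocorticoid from its inert form, and STAR carries cholesterol into mitochondria at the start of steroid synthesis.

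The libraries differed widely in markers of the labelled tissue. Of 16 genes that mark hypothalamic neurons and their territories, between 0 (M4 replicate 3) and 11 (D1 replicate 1 and M6 replicate 4) reached 1 FPKM in a library. Their summed level ranged from 4.75 to 538 FPKM in D1 libraries, from 10.9 to 41.4 in M2, from 1.46 to 494 in M4 and from 6.25 to 918 in M6. NR5A1, RAX and GHRH, which mark the ventromedial nucleus, the tuberal region and growth hormone releasing neurons, did not reach 1 FPKM in any library, and OXT reached it in 8 and AVP in 13 of 20. Pituitary markers, 8 genes without PRL, which was not matched, summed to at most 5.75 FPKM. The 11 markers of cortex, striatum and thalamus summed to between 19.0 and 448 FPKM. Of these, TCF7L2, LEF1 and PPP1R1B had the highest medians, 10.8, 4.06 and 3.64 FPKM. SLC17A7, TBR1 and NEUROD6 had medians of 0.215, 0.106 and 0.0277 FPKM, so the 2 sums do not compare the content of these tissues. Each library had 15363 to 16259 genes at 0.1 FPKM or more. The gene KLHDC1 took 23.9% of the summed FPKM in M2 replicate 3 and 9.83% in M6 replicate 3, where it was the highest gene. In every other library except M4 replicate 1 the highest gene was LOC102181504, with up to 11.7% (M6 replicate 5). Fewer cells of a type and less RNA per cell cannot be told apart in such bulk tissue.

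The 9 genes fell into a higher and a lower set of levels. NR3C1 (gene 102189859, chromosome 7, 56055609 to 56173859, ARS1.2) had the highest mean, 28.7 FPKM over the 20 libraries, followed by SRD5A1 (gene 102172667, chromosome 20, 66521371 to 66557879) at 15.8 FPKM. NR3C2 (gene 102172834, chromosome 17, 60871293 to 61304793) averaged 10.2 FPKM and HSD11B1 (gene 102168375, chromosome 16, 72192175 to 72232663) 9.70 FPKM. These 4 genes were above 3 FPKM in every library. ESR2 (gene 100860823, chromosome 10, 26669088 to 26714330) averaged 1.39 FPKM and ESR1 (gene 102189484, chromosome 9, 75981103 to 76380509) 1.38 FPKM. CYP19A1 (gene 100861413, chromosome 10, 44007959 to 44058566) averaged 1.35 FPKM, PGR (gene 102175599, chromosome 15, 74479830 to 74589900) 0.962 FPKM and STAR (gene 102187294, chromosome 27, 12351926 to 12359643) 0.268 FPKM. The end of the NR3C2 gene model overlaps that of ARHGAP10, and the other 8 overlap no annotated gene.

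ESR2, the highest of the lower set by mean, did not reach HSD11B1 in any library, since the lowest HSD11B1 value, 3.55 FPKM, was above the highest ESR2 value, 3.25 FPKM. CYP19A1 crossed into the higher set in M2 replicate 1, where its 15.1 FPKM was above HSD11B1 (14.8 FPKM) and SRD5A1 (8.96 FPKM). Within the higher set, NR3C1 came first in 18 of 20 libraries and SRD5A1 in the other 2. SRD5A1 was above NR3C2 in 17 libraries, and NR3C2 above HSD11B1 in 14. Within the lower set neighbours changed places often, with ESR2 above ESR1 in 12 libraries, ESR1 above CYP19A1 in 14 and CYP19A1 above PGR in only 6, although the mean of CYP19A1 was the larger. The means of ESR2, ESR1, CYP19A1 and PGR lay within 1 SD of each other.

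**Figure D1:**
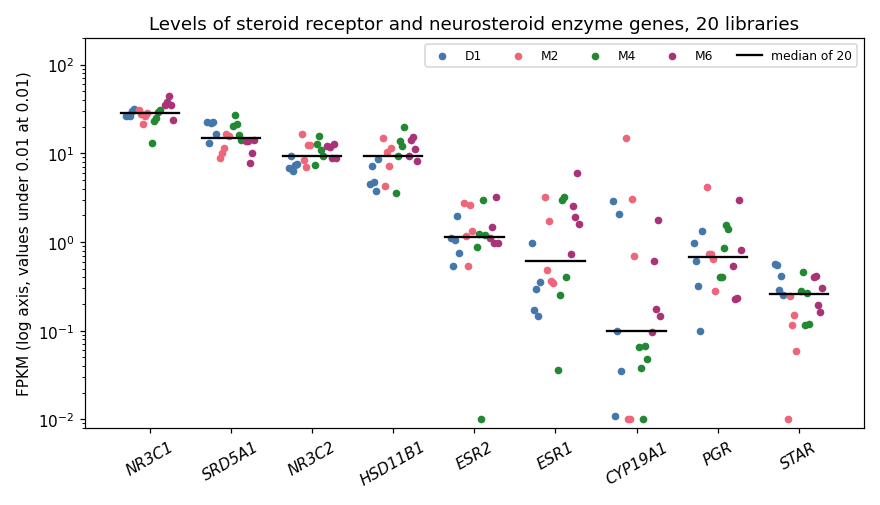
FPKM of the 9 genes on a log axis, 1 point per library coloured by stage, in order of mean level. NR3C1, SRD5A1, NR3C2 and HSD11B1 keep to a narrow band above 3 FPKM, while CYP19A1 runs from 0 to 15.1 FPKM.

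The spread between libraries differed between the sets too. The coefficient of variation over all 20 libraries was 23.0% for NR3C1, 29.2% for NR3C2, 32.9% for SRD5A1 and 45.9% for HSD11B1. It was 62.8% for ESR2, 103% for PGR, 111% for ESR1 and 251% for CYP19A1. STAR had 59.5%. Single libraries carried much of the low genes: M2 replicate 1 held 55.9% of all CYP19A1 signal, and M6 replicate 4 held 21.6% of all ESR1 signal. The table gives no read counts, so the counting error behind values near 0 is unknown.

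None of the 9 genes passed the test between stages. Genes were tested with limma on log2(FPKM + 0.1), with p-values adjusted over all 16771 genes tested, and called at an adjusted p under 0.05 and a log2 fold change of at least 1 in size. All 9 members passed the filter on low values. The calls were 0 of 9 in M2 vs. D1, where 0% of all genes were called. M4 vs. D1 also gave 0 of 9 (0.0537% of all genes), as did M6 vs. D1 (0.00596%). Among the later stages, M4 vs. M2, then M6 vs. M2, and M6 vs. M4 gave 0 of 9, each with 0% of all genes called. In the comparison of the mean of M2, M4 and M6 with D1, 0 of 9 were called against 0.0596% of all genes, and in the test for any difference over the 4 stages 0 of 9 against 0.00596%. With so few calls in the whole table, 0 of 9 does not set these genes apart.

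Without adjustment, limma gave a p under 0.05 for 3 of 9 genes in M2 vs. D1 (15.6% of all genes). It did so for 2 genes in M4 vs. D1 (8.71%), for 4 in M6 vs. D1 (7.41%) and for 5 in later stages vs. D1 (11.7%). Those 5 were ESR1, NR3C2 and HSD11B1, with higher values after D1, and SRD5A1 and STAR, with lower values. M4 vs. M2 gave 2 (8.68%), while M6 vs. M2 gave 1 (6.14%), M6 vs. M4 gave 2 (6.87%) and 2 were found in the test over the 4 stages (10.4%). With the mapping rate of each library as a covariate, all 4 comparisons with D1 gave 0 genes, and the others gave 1 (M4 vs. M2), 2 (M6 vs. M2), 3 (M6 vs. M4) and 2 (over the 4 stages). Under this covariate the share of all genes with a p under 0.05 was not counted. These counts therefore do not set the 9 genes apart. Calls over all genes in later stages vs. D1 went from 10 to 0 with the covariate. None of the p-values counted for the 9 genes passed the adjustment. The log2 differences behind only some of them are printed below. The comparisons that share the D1 libraries share their error as well.

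**Figure D2:**
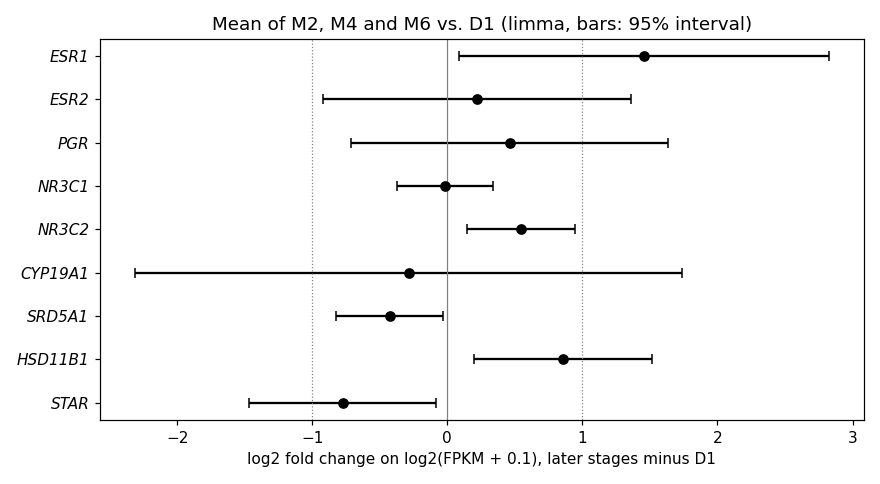
log2 fold change of each gene on the log2(FPKM + 0.1) scale, mean of M2, M4 and M6 (15 libraries) minus D1 (5 libraries), with 95% intervals from limma and dotted lines at a change of 1 in either direction. The intervals of ESR1, NR3C2, HSD11B1, SRD5A1 and STAR leave out 0 before adjustment, and none of these genes passed it.

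Among the sex steroid receptors, ESR1, the main estrogen receptor of the feedback centres, had its lowest mean at D1 and its highest at M6. The 5 D1 libraries held 0.980, 0.171, 0.294, 0.148 and 0.353 FPKM and the 5 M2 libraries 3.18, 0.483, 1.73, 0.366 and 0.346 FPKM. M4 values were 0.0361, 0.253, 3.00, 3.18 and 0.403 FPKM, and M6 values were 0.729, 2.56, 1.91, 5.97 and 1.58 FPKM. The D1 values stayed under 1 FPKM and 4 of 5 M6 values were above it, but D1 replicate 1 was above the lowest M6 value, and the M2 and M4 libraries spanned both ranges. The means were 0.389 ± 0.341 FPKM in D1 goats, 1.22 ± 1.24 in M2, 1.38 ± 1.57 in M4 and 2.55 ± 2.02 in M6 (mean ± SD, n = 5). On the log2 scale M6 was higher than D1 by 2.35 (SE 0.80, limma adjusted p = 0.535), the smallest p of the 6 stage pairs for this gene. Later stages were above D1 by 1.45 (95% interval 0.09 to 2.82, adjusted p = 0.400 by limma). The highest ESR1 value came from M6 replicate 4, the library with the highest mean log2 level of the hypothalamic markers and the second highest summed level.

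ESR2, the second estrogen receptor, was more even. Its means were 1.08 ± 0.538 FPKM in D1 goats, 1.68 ± 0.961 in M2, 1.26 ± 1.09 in M4 and 1.55 ± 0.971 in M6 (mean ± SD, n = 5). M4 replicate 3, the library with none of the 16 hypothalamic markers at 1 FPKM, was listed at 0 for ESR2, and M6 replicate 4 held the highest value. The ranges of the 4 stages overlapped, and later stages differed from D1 by 0.22 on the log2 scale (95% interval -0.92 to 1.36, limma adjusted p = 0.901). Leaving out single libraries moved that difference between 0.02 (without D1 replicate 2) and 0.48 (without M4 replicate 3). ESR1 exceeded ESR2 in 8 of 20 libraries. By stage this was 0 of 5 at D1, 2 of 5 at both M2 and M4, and 4 of 5 at M6.

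PGR, the progesterone receptor and a classical target of estrogen, averaged 0.669 ± 0.497 FPKM in D1 goats, 1.3 ± 1.59 in M2, 0.926 ± 0.542 in M4 and 0.951 ± 1.15 in M6 (mean ± SD, n = 5). The M2 mean rested on replicate 1 at 4.12 FPKM, whereas the other 4 M2 libraries lay between 0.282 and 0.741 FPKM. M6 replicate 4 stood above its stage in the same way, at 2.96 FPKM against at most 0.810 FPKM. The log2 difference of later stages from D1 was 0.46 (95% interval -0.71 to 1.63, limma adjusted p = 0.780). It ranged from 0.05 without D1 replicate 4 to 0.76 without D1 replicate 5.

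The corticosteroid receptors were present in every library. NR3C1, the glucocorticoid receptor, averaged 28.3 ± 2.48 FPKM in D1 goats, 27.1 ± 3.66 in M2, 24.3 ± 7.0 in M4 and 35.3 ± 7.57 in M6 (mean ± SD, n = 5). Values of 26.1, 27.3, 26.1, 30.2 and 31.6 FPKM were found at D1 and of 31.2, 27.9, 21.2, 26.5 and 28.5 FPKM at M2. They were 13.0, 23.4, 25.1, 29.4 and 30.7 FPKM at M4 and 35.4, 37.5, 44.6, 35.1 and 23.6 FPKM at M6. Of the M6 libraries 4 were above every other library, and M6 replicate 5 lay within the range of the earlier stages. The smallest p of its 6 stage pairs was that of M6 vs. M4, with 0.57 on the log2 scale (SE 0.21, limma adjusted p = 0.700). Later stages and D1 differed by -0.02 (95% interval -0.37 to 0.34, limma adjusted p = 0.977).

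NR3C2, the mineralocorticoid receptor, had its lowest mean at D1, and its means were 7.44 ± 1.15 FPKM in D1 goats, 11.4 ± 3.83 in M2, 11.2 ± 3.12 in M4 and 10.9 ± 1.87 in M6 (mean ± SD, n = 5). Single goats gave 6.79, 9.29, 6.25, 7.36 and 7.53 FPKM at D1 and 16.7, 8.50, 6.97, 12.5 and 12.5 FPKM at M2. At M4 they gave 7.46, 12.8, 15.5, 10.8 and 9.25 FPKM, and at M6 12.1, 11.8, 8.86, 12.8 and 8.90 FPKM. The D1 values were the tightest of the 4 stages, at 6.25 to 9.29 FPKM, and each later stage had at least 1 library within that range. Against D1 the log2 difference was 0.56 at M2, 0.55 at M4 and 0.54 at M6, each with an SE of 0.23, and the limma adjusted p-values were 0.263, 0.524 and 0.638. Averaged over later stages it was 0.55 (95% interval 0.15 to 0.95, limma adjusted p = 0.279).

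NR3C1 exceeded NR3C2 in 20 of 20 libraries, by 1.62 to 5.04 times. The mean ratio was 3.85 ± 0.527 in D1 goats, 2.52 ± 0.615 in M2, 2.24 ± 0.740 in M4 and 3.31 ± 0.987 in M6 (SD, n = 5). The ratio at D1 ran from 2.94 to 4.19 and overlapped with that of every later stage.

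**Figure D3:**
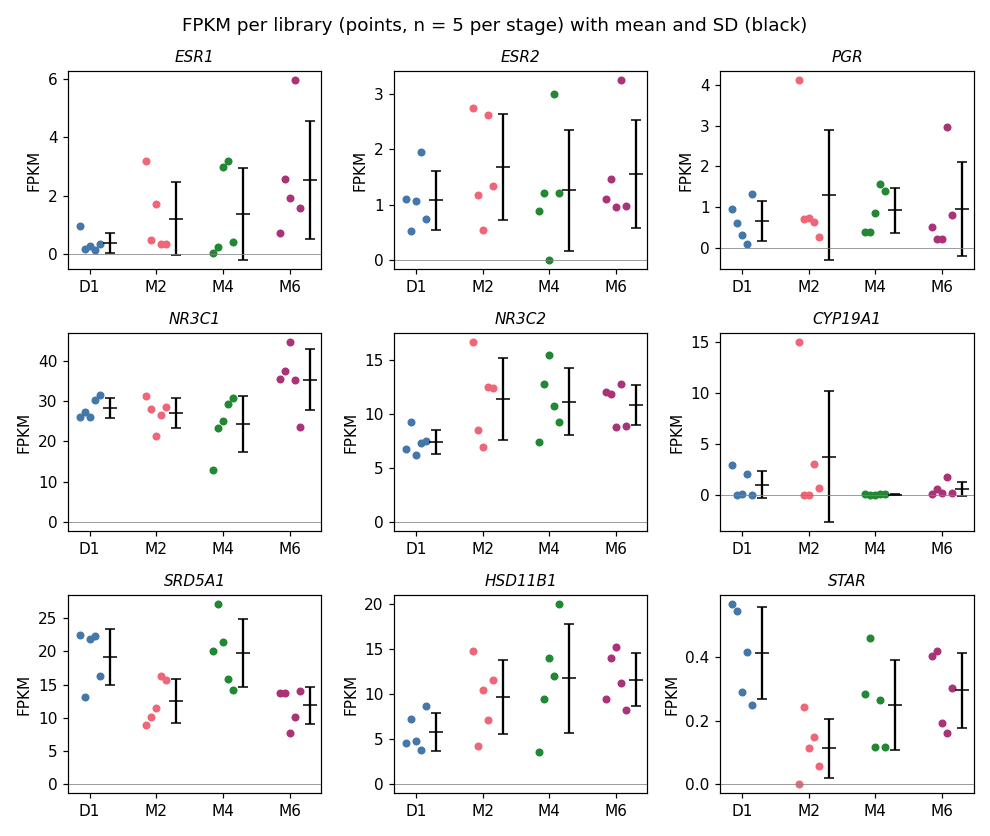
FPKM of each gene by stage, 1 point per library (n = 5), with the mean and SD beside the points in black; each panel has its own linear axis. The SD bars of stages overlap in most panels, and single high libraries set the M2 means of PGR and CYP19A1.

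Of the enzymes, CYP19A1 was the most uneven. The 5 D1 libraries held 2.90, 0.0108, 0.10, 2.07 and 0.0355 FPKM and the 5 M2 libraries 15.1, 0, 0, 3.02 and 0.699 FPKM. M4 values were 0.0651, 0.0377, 0, 0.0677 and 0.0481 FPKM, and M6 values were 0.0971, 0.611, 0.174, 1.76 and 0.148 FPKM. M2 replicate 1 stood far above the next highest library, 3 libraries were listed at 0, and only 9 of 20 reached 0.1 FPKM, with D1 replicate 3 just short of it. All M4 values lay under 0.1 FPKM and below those of M6, the lowest of which was 0.0971 FPKM. The smallest p of the 6 stage pairs was that of M4 vs. M2, with a log2 difference of -2.54 (SE 1.19, limma adjusted p = 0.569). The later stages differed from D1 by -0.29, and the 95% interval of -2.31 to 1.74 (limma adjusted p = 0.929) leaves room for a several-fold change either way.

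SRD5A1, the 5-alpha-reductase of the brain, had higher means at D1 and M4 than at M2 and M6. Values of 22.4, 13.2, 21.8, 22.4 and 16.3 FPKM were found at D1 and of 8.96, 10.1, 11.5, 16.4 and 15.7 FPKM at M2. They were 20.1, 27.1, 21.5, 15.9 and 14.2 FPKM at M4 and 13.8, 13.7, 7.78, 10.1 and 14.1 FPKM at M6. The M4 values, 14.2 FPKM and more, lay above every M6 value, with 14.2 and 14.1 FPKM as the closest pair, and D1 overlapped with M2 and M6. The means were 19.2 ± 4.24 FPKM in D1 goats, 12.5 ± 3.34 in M2, 19.8 ± 5.07 in M4 and 11.9 ± 2.83 in M6 (mean ± SD, n = 5). The M6 vs. M4 difference was -0.73 on the log2 scale (SE 0.23, limma adjusted p = 0.700), the smallest p of the 6 stage pairs, and M2 vs. D1 gave -0.62 (adjusted p = 0.23). The summed level of 8 neuronal markers ranged from 798 to 1582 FPKM in D1 goats, 208 to 1315 in M2, 738 to 2651 in M4 and 77.6 to 981 in M6, and its part in the stage differences of SRD5A1 was not tested.

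HSD11B1 averaged 5.80 ± 2.07 FPKM in D1 goats, 9.65 ± 4.05 in M2, 11.7 ± 6.01 in M4 and 11.6 ± 2.94 in M6 (mean ± SD, n = 5). Single goats gave 4.52, 7.26, 4.78, 3.76 and 8.65 FPKM at D1 and 14.8, 4.28, 10.5, 7.17 and 11.6 FPKM at M2. At M4 they gave 3.55, 9.39, 13.9, 11.9 and 19.9 FPKM, and at M6 9.43, 14.0, 15.2, 11.2 and 8.20 FPKM. The D1 values lay in the lower part of the range, up to 8.65 FPKM, and 2 libraries of M2, 1 of M4 and 1 of M6 were no higher than that. On the log2 scale M6 was 1.02 above D1 (SE 0.39, limma adjusted p = 0.617), again the smallest p of the 6 stage pairs. Later stages were 0.86 above D1 (95% interval 0.20 to 1.52, limma adjusted p = 0.305). HSD11B2, which inactivates glucocorticoid, was below HSD11B1 in 20 of 20 libraries and listed at 0 in 12, with its highest value, 2.01 FPKM, in M4 replicate 4. H6PD, which supplies the cofactor of HSD11B1, had a median of 1.75 FPKM.

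STAR had the lowest mean of the 9 genes and was at or under 0.567 FPKM in all libraries, although its median, 0.259 FPKM, was above that of CYP19A1, 0.0985 FPKM. The 5 D1 libraries held 0.567, 0.546, 0.290, 0.416 and 0.251 FPKM and the 5 M2 libraries 0, 0.244, 0.115, 0.150 and 0.0593 FPKM. M4 values were 0.284, 0.461, 0.117, 0.267 and 0.118 FPKM, and M6 values were 0.403, 0.418, 0.192, 0.161 and 0.303 FPKM. Every D1 value was above every M2 value, although the closest pair, 0.251 and 0.244 FPKM, nearly touched, and M4 and M6 overlapped with both. The M2 vs. D1 difference was -1.34 on the log2 scale (SE 0.41, limma adjusted p = 0.164), the smallest p of its stage pairs and the smallest adjusted p among the 9 genes. At such levels the number added before the logarithm sets part of the fold change.

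Counted over the 9 genes, the 5 libraries of 2 stages did not overlap for STAR in M2 vs. D1 (1 of 9, against 3.82% of all genes) and for CYP19A1 and SRD5A1 in M6 vs. M4 (2 of 9, against 0.775%). In 4 comparisons no gene of the 9 was separated: M4 vs. D1 with 1.93% of all genes, M6 vs. D1 with 2.84%, M4 vs. M2 with 1.09% and M6 vs. M2 with 0.757%.

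The other genes of steroid signalling and synthesis gave 0 calls in all comparisons by limma. Of 12 further steroid and related receptors, all tested, 1 had an unadjusted p under 0.05 in later stages vs. D1, ESRRA, an orphan receptor of energy metabolism, at -0.62 on the log2 scale (adjusted p = 0.417). PGRMC1, a membrane protein that binds progesterone, came next with -0.52 (adjusted p = 0.541). The median log2 difference of the list was -0.12, against -0.07 for all genes. Of all genes, 11.7% had an unadjusted p under 0.05 in this comparison. PGRMC1 had the highest level of these receptors, with a median of 134 FPKM. The membrane progesterone receptor genes PAQR6 and PAQR8 had medians of 61.4 and 28.4 FPKM, above PGR in all 20 libraries. The membrane estrogen receptor GPER1 had a median of 0.474 FPKM.

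Of 32 other genes of steroid synthesis and metabolism, 23 were matched in the table and 18 passed the filter. In later stages vs. D1, 4 of 18 had an unadjusted p under 0.05 (1 higher, 3 lower), against 11.7% of all genes. The median log2 difference was -0.29, against -0.07 for all genes. STS, which frees steroids from their sulfates, was 1.31 higher after D1 (SE 0.55, limma adjusted p = 0.366), with its highest value, 15.6 FPKM, in M2 replicate 3. HSD17B11, a dehydrogenase of steroids and lipids, gave -0.44 (limma adjusted p = 0.356). CYP11A1, which opens the pathway by cutting the cholesterol side chain, was listed at 0 in 17 libraries and did not exceed 0.0740 FPKM. HSD3B1, CYP21A2, CYP11B1 and POR were among the genes not matched, so their levels are unknown. CYP17A1, which makes androgens, was listed at 0 in 16 and reached 1 FPKM only in M2 replicate 3, at 2.37 FPKM, the library led by KLHDC1. HSD17B3 was listed at 0 in 19 libraries and AKR1D1 in 20. By contrast HSD17B12, HSD17B10 and HSD17B4, which also act on fatty acids, had medians of 75.6, 33.2 and 29.1 FPKM, and the mitochondrial electron carriers FDX1 and FDXR had 8.98 and 6.43 FPKM.

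Of 13 receptor chaperones and coregulators, 2 had an unadjusted p under 0.05 in later stages vs. D1, NCOA2, a coactivator, at 0.56 (limma adjusted p = 0.380) and FKBP5, which holds NR3C1 in a low affinity state, at -0.82 (adjusted p = 0.405). The median of that list was -0.22, against -0.07 for all genes, of which 11.7% had an unadjusted p under 0.05. Among 12 genes that respond to glucocorticoids, KLF9 at -0.76 (SE 0.25, limma adjusted p = 0.246) and FKBP5 again were the 2 with a p under 0.05, and the median was -0.29. Of 7 estrogen-responsive genes 6 were tested, 0 had an unadjusted p under 0.05, and the median was -0.02. OXTR, the oxytocin receptor, gave -0.64 (limma adjusted p = 0.669) and CCND1, a cyclin, -0.21 (adjusted p = 0.770).

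Relations among the 9 genes were examined over the 20 libraries, on log2 values and with 100000 permutations. Of 36 pairs, 0 passed an adjusted p under 0.05 by Pearson's r and 2 by Spearman's rho. ESR1 and HSD11B1 gave r = 0.61 (permutation p = 0.00489, adjusted p = 0.0880) and rho = 0.65 (permutation p = 0.00277, adjusted p = 0.0499). With values centred within each stage r was 0.50, and without the 2 libraries farthest from the ESR1 median it was 0.54. ESR2 and CYP19A1 gave r = 0.58 (permutation p = 0.00803, adjusted p = 0.0964) and rho = 0.65 (permutation p = 0.00220, adjusted p = 0.0499), with r = 0.54 centred by stage and 0.64 without 2 libraries. Both relations sit at the threshold of one measure and miss it on the other.

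The levels of several of the 9 genes also moved with marker lists for cell types and regions, in a set of 99 relations chosen after the data were seen. CYP19A1 went with the hypothalamic markers, with rho = 0.70 (permutation p = 0.00071, adjusted p = 0.0351) and r = 0.58 (permutation p = 0.00830, adjusted p = 0.117), and r was 0.55 centred by stage and 0.44 without the 2 libraries with the most extreme marker level. For ESR1 and ESR2 r with the same markers was 0.52 and 0.49 (rho = 0.43 and 0.49, permutation p of r 0.0192 and 0.0301, of rho 0.0570 and 0.0306, adjusted p of r 0.146 and 0.192, of rho 0.269 and 0.216). For PGR r was 0.39 and rho 0.19 (permutation p = 0.0882 and 0.430, adjusted p = 0.288 and 0.747), and without the 2 libraries r was 0.43 for ESR1, 0.48 for ESR2 and 0.20 for PGR. By the mean log2 level of the markers, the measure used in these relations, M6 replicate 4, M2 replicate 1 and D1 replicate 1 were 3 of the 4 highest libraries, and they held 3 of the 5 highest CYP19A1 values together with M2 replicate 4 and D1 replicate 4. M6 replicate 5, the other of those 4, had 0.148 FPKM of CYP19A1. By summed FPKM the order differed: M6 replicate 5 (918 FPKM) came first and M4 replicate 4 (494 FPKM), with 0.0677 FPKM of CYP19A1, was among the highest 4, while M2 replicate 1 had 41.4 FPKM. CYP19A1 also rose with the cortex, striatum and thalamus markers, with rho = 0.47 (permutation p = 0.0363, adjusted p = 0.225) and r = 0.43 (permutation p = 0.0579, adjusted p = 0.220). Centred by stage that rho was 0.61, against 0.56 for the hypothalamic markers, and r without 2 libraries was 0.51. D1 replicate 4 held the highest DRD1 and PPP1R1B values.

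Other lists gave relations of similar or larger size for the sex steroid receptors, none of which passed the adjustment. ESR1 with microglial markers gave r = 0.62 (permutation p = 0.00335, adjusted p = 0.0881) and rho = 0.55 (permutation p = 0.0142, adjusted p = 0.156), with r = 0.71 centred by stage and 0.43 without 2 libraries. PGR with the same markers gave r = 0.56 (permutation p = 0.0114, adjusted p = 0.129) and rho = 0.59 (permutation p = 0.00662, adjusted p = 0.0936), with r = 0.66 centred by stage and 0.44 without 2 libraries. ESR2 with oligodendrocyte markers gave r = -0.39 (permutation p = 0.0934, adjusted p = 0.289) and rho = -0.63 (permutation p = 0.00398, adjusted p = 0.0832), with r = -0.47 centred by stage and -0.42 without 2 libraries.

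**Figure D4:**
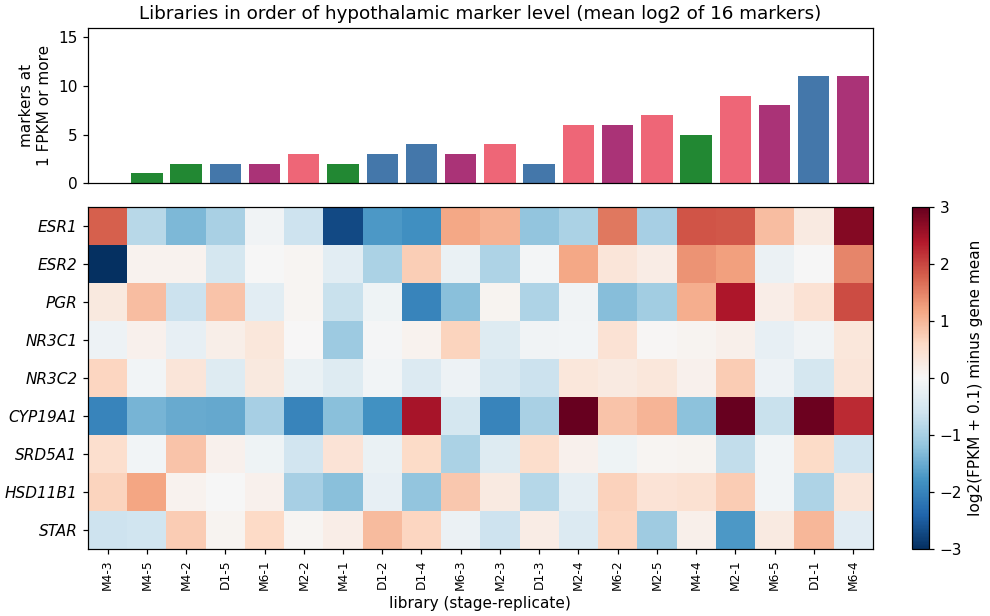
Upper panel, number of the 16 hypothalamic markers at 1 FPKM or more in each library, with libraries in order of mean marker level and bars coloured by stage as in the plot of levels; lower panel, log2(FPKM + 0.1) of each gene minus its mean, in the same order. CYP19A1 is high in libraries to the right, such as M2-1 and M6-4, and M4-3 at the left has 0 markers and the lowest ESR2.

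SRD5A1 went with the neuronal markers, with r = 0.68 (permutation p = 0.00050, adjusted p = 0.0248) and rho = 0.60 (permutation p = 0.00602, adjusted p = 0.0936). It was 0.70 centred by stage and 0.43 without M6 replicate 3 and M2 replicate 1, the libraries with the lowest summed neuronal markers, 77.6 and 208 FPKM, and the lowest SRD5A1, 7.78 and 8.96 FPKM, so much of its size rests on those libraries. HSD11B1 ran the other way, with r = -0.58 (permutation p = 0.00500, adjusted p = 0.0888) and rho = -0.68 (permutation p = 0.00133, adjusted p = 0.0439), -0.51 centred by stage and -0.57 without the same 2 libraries. NR3C2 was lower where erythroid markers were higher, with r = -0.78 (permutation p = 5e-05, adjusted p = 0.00495) and rho = -0.76 (permutation p = 9e-05, adjusted p = 0.00891). That r was -0.68 centred by stage and -0.82 without 2 libraries. Of the 6 erythroid markers only 4 were matched, and HBB and HBA1 were not. HBM was at 0 throughout. The sum of the 4 ran from 1.55 to 3.73 FPKM at D1 and from 0 to 2.32 FPKM later. The list was thus both sparse and highest at D1, where NR3C2 was lowest. Its part in the NR3C2 difference was not tested.

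**Figure D5:**
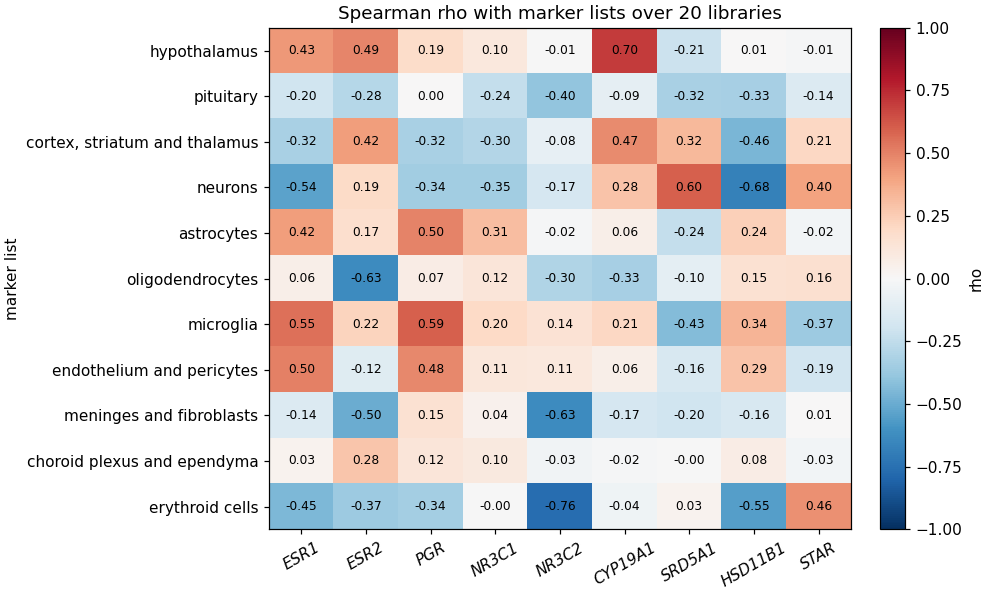
Spearman's rho between each of the 9 genes and the mean log2 level of each of 11 marker lists over 20 libraries, red for positive and blue for negative. The strongest cells are NR3C2 with erythroid markers (-0.76) and CYP19A1 with hypothalamic markers (0.70).

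The genes whose pattern was most like that of each member were found by Spearman's rho over the 20 libraries among the 13059 genes whose median reached 1 FPKM (without the member itself), and are given as a description. ESR1 was most like ZFYVE26 (rho = 0.85), NOTCH2 (0.83), a receptor of cell fate signalling, and MED12 (0.83), a Mediator subunit, and most unlike TSPAN17 (-0.87). ESR2 was most like DROSHA (0.89), which cuts primary miRNAs, BBS9 (0.88) and TMEM62 (0.87), and most unlike NUAK1 (-0.80). PGR was most like FAM129A (0.83), FAM107A (0.78) and GPR161 (0.78), and most unlike SPCS3 (-0.75), a subunit of the signal peptidase.

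NR3C1 was most like RPS4X (0.89), a ribosomal protein gene, ACAD11 (0.86) and SESN1 (0.85), and most unlike TMEM151B (-0.89). NR3C2 was most like LOC102187345 (0.98), IMPG2 (0.93) and ZCCHC11 (0.90), and most unlike POLR2F (-0.82), a subunit of RNA polymerases. The homeobox gene DLX6 of forebrain GABA neurons was the gene most like CYP19A1 (0.88), followed by the retinoid receptor RXRG (0.84) and the Wnt receptor FZD5 (0.81), and AHR was most unlike it (-0.78). SRD5A1 was most like PTGFRN (0.89), VTA1 (0.86) and VAMP4 (0.85), and most unlike SLC25A42 (-0.80). HSD11B1 was most like SP2 (0.86), EVC2 (0.85) and RASGRP3 (0.85), and most unlike YKT6 (-0.86). STAR had the weakest best matches, SMAP1 (0.74), LRRC8B (0.72) and C23H6orf226 (0.72), with MSANTD2 most unlike it (-0.75).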

How the data were processed

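The hypothalamus of 20 goats gave 20 strand-specific libraries depleted of rRNA. Per the labels and methods, the authors aligned reads with HISAT2 2.0.5, assembled transcripts with StringTie 1.3.3b and deposited FPKM per gene, the unit used here. FPKM holds no counts, so depth per value is unknown. Replicates are separate goats. The 16771 of 21071 genes that reached 0.1 FPKM in 5 or more libraries were fitted as log2(FPKM + 0.1) with limma 3.58.1 in R 4.3.3, with 4 stages as groups, a variance trend and Benjamini-Hochberg adjustment over all genes. Fold changes on this scale understate changes of low genes. The fit was also run on simulated data with independent normal noise. Shifts were added there only to genes above a mean level that STAR and PGR did not reach. That run therefore does not cover such low genes. Correlations and tables used Python 3.11.15 (scipy 1.17.1, numpy 2.4.6, pandas 2.3.3), with figures by matplotlib 3.10.9. Symbols were matched to ARS1.2, where 20610 gene IDs matched.

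The 9 genes and all lists were chosen with earlier results of these data known. The text names the 9 genes and, per list other than the marker lists, the 2 genes with the smallest p in later stages vs. D1. It also names the 3 most alike and 1 most unlike gene per member. Outside the marker lists, 0 list genes had an adjusted p under 0.05 between stages. The erythroid marker list held 1 called gene, lower than at D1, for later stages together and for M4 and M6 each. Its smallest limma adjusted p was 0.00361 for later stages, 0.00694 for M4 and 0.0213 for M6. Other list genes and library values were named after they were seen, by level. Each stage pair printed per gene was picked for its smallest p of 6. Alternatives covered pseudocount, filter, scaling, weights, covariates, replicate block and libraries left out. No sequence was used here, and values of 1 list gene are not reported here.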

Additional observations from a re-analysis of the deposited data

Results flagged for a closer look

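Within stages, 5 of 36 groups of 5 libraries held a highest value far from the others, with a gap to the nearest of more than 0.71 of the whole range. This cutoff flags about 1 in 20 groups of independent, normally distributed values. Here the values were FPKM without a logarithm, the flagged genes were low and uneven, and every gene used the same libraries. The count of 5 in 36 can therefore not be set against that rate. ESR1 at D1 was flagged for replicate 1 at 0.980 FPKM, where the next value was 0.353 FPKM. ESR2 at M6 was flagged for replicate 4 at 3.25 FPKM, next to 1.47 FPKM. PGR was flagged at M2 for replicate 1, at 4.12 FPKM against 0.741 FPKM, and at M6 for replicate 4, at 2.96 FPKM against 0.810 FPKM. CYP19A1 at M2 was flagged for replicate 1 at 15.1 FPKM, with 3.02 FPKM next. These libraries, D1 replicate 1, M2 replicate 1 and M6 replicate 4, ranked 2, 4 and 1 of 20 by the mean log2 level of the hypothalamic markers. M2 replicate 1 also held the highest values of the microglial markers AIF1, CX3CR1, P2RY12, TMEM119 and C1QB, whereas CSF1R and C1QA were highest in other libraries. The part of tissue content in the flagged values was not tested.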

How the results depend on the processing

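No alternative that changed the pseudocount, filter, scaling, covariates, block or libraries called any of the 9 genes in any comparison. Library quality weights in limma called 1, STAR in M2 vs. D1 (adjusted p = 0.0417), where they called 148 of all genes against 0 without weights. With the weights NR3C2 and HSD11B1 in later stages vs. D1 had adjusted p-values of 0.0176 and 0.0388 with changes under 1. In that comparison 677 of 16771 genes had an adjusted p under 0.05 with the weights, against 13 without them. Under quantile normalization 5 pairs of members passed by Pearson's r, against 0. Replicate numbers did not pair the libraries: deviations of same-numbered libraries correlated with a median r of -0.01 (-0.25 to 0.43), and the most alike library of another stage had the same number for 3 of 20. With the mapping rate as a covariate, members with an unadjusted p under 0.05 went from 5 to 0 in later stages vs. D1. Calls over all genes went from 10 to 0 there, and the share of all genes with an unadjusted p under 0.05 was not counted. The replicate block gave 0 calls among the 9 genes in each comparison and moved the calls over all genes in later stages vs. D1 from 10 to 13.

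Of 581 alternative fold changes for 18 differences, 16 changed sign, none of them past the threshold before or after. The replicate block with the mapping rate gave ESR1 -0.32, PGR -0.41 and HSD11B1 -0.12 in later stages vs. D1 and PGR -0.46 in M2 vs. D1, where quality weights gave -0.27. For NR3C1 in later stages vs. D1 quantile normalization gave 0.16, median-ratio scaling 0.034, quality weights 0.088 and leaving out single libraries -0.050 to 0.053. For CYP19A1 leaving out single libraries gave -0.80 to 0.39, and leaving out both libraries led by KLHDC1 gave 0.025. The last alternative and the hypothalamic marker level as a covariate, which changed no direction, were chosen after the data were seen. The cause of these changes was not tested. STAR and PGR had no value under a filter on a mean of 1 FPKM. With no read counts, differences among values near 0, as for STAR and CYP19A1, could not be set against counting error.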
